A study of Mus musculus with 2 samples.

Results

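The genes of major histocompatibility complex (MHC) class I presentation examined here are 10 genes chosen by name: the heavy chains H2-K1, H2-D1 and H2-T23, the light chain B2m, the transport and loading genes Tap1, Tap2 and Tapbp, the immunoproteasome subunits Psmb8 and Psmb9, and the transactivator Nlrc5. All 10 were matched by symbol and Ensembl identifier among the 43346 Ensembl genes of the tables. They were measured by total RNA-seq in whole spleens of newborn mice of strain B6NCrl, a C57BL/6N line, with no treatment or altered allele named in the labels. The samples form 1 group of 2 libraries, at postnatal day 0, each from the spleen of 1 pup, and both pups came from the same pregnancy. Replicate 1 is pup 2 and replicate 2 is pup 1, and their sex was not collected. The labels give both pups 1 shared donor identifier, and they were taken as littermates. Each library started from 10 ng of RNA longer than 200 nt, with spike-in RNAs added. The libraries held 33122187 (replicate 1) and 32162543 (replicate 2) estimated counts, 47898 and 54326 of them in the 10 genes. With 1 group there is no contrast between conditions and no test. Levels are TPM, an abundance per unit of transcript length that sums to the same total in each library, and an error is the SD over the 2 libraries.

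MHC class I molecules display peptides from inside the cell to CD8 T cells and to receptors of natural killer cells. The proteasome cuts proteins into peptides, the TAP transporter carries them into the endoplasmic reticulum, and tapasin (the product of Tapbp) holds an empty class I molecule beside the transporter until a peptide binds. A class I molecule is a heavy chain paired with beta-2 microglobulin. H2-K1 and H2-D1 are the classical heavy chains of C57BL/6 mice, and H2-T23 encodes Qa-1, a nonclassical heavy chain read by the NKG2 receptors. Interferons raise the whole set, and NLRC5 is a transcriptional activator of class I genes. The spleen, as a filter of blood that gathers lymphocytes and macrophages, is a site where much of the set is used. In a bulk library fewer cells of a type and less RNA per cell cannot be told apart.

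Of the 10 genes, 8 lie on chromosome 17 between 33915899 and 36032855 (mm10), in the mouse MHC. Psmb9, Tap1, Psmb8 and Tap2 sit next to one another within 34335 bases. B2m is on chromosome 2 (122147686 to 122153083, plus strand) and Nlrc5 on chromosome 8 (94434356 to 94527272, plus strand). The start regions of 5 of the genes are shown because class I genes are known to share control elements there. The sequences are those of RefSeq on GRCm38.p6 (mm10), and windows of 250 bases before to 50 after the start site were present for 8 of the 10 genes, with none for Tap2 or Nlrc5. For H2-K1 (chr17:34000348-34000597, minus strand), H2-D1 (chr17:35262844-35263093, plus strand) and B2m (chr2:122147437-122147686, plus strand) the 250 bases before the start site are printed, and for Tap1 and Psmb9 the 225 bases between their start sites, read on the Tap1 strand (chr17:34187331-34187555). That gap holds for the RefSeq starts, while in GENCODE M21 Psmb9 starts at 34187764, inside Tap1, and both genes overlap by 212 bases. Capitals mark matches to the motifs named in the next paragraph.
H2-K1: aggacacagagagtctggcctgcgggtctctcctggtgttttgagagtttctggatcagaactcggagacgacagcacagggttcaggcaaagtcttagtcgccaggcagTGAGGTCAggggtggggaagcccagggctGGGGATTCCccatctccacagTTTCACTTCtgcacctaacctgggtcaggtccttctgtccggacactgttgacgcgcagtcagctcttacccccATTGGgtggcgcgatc
H2-D1: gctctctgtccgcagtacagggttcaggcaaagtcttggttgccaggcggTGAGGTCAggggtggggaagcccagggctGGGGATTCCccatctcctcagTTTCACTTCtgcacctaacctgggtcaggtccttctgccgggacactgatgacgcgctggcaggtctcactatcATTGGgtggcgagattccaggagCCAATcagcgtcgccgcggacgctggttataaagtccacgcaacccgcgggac
B2m: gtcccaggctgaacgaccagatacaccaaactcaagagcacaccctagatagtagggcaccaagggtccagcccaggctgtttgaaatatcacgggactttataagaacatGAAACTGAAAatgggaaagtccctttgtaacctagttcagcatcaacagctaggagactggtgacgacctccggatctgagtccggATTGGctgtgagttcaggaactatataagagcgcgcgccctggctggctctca
Tap1 to Psmb9: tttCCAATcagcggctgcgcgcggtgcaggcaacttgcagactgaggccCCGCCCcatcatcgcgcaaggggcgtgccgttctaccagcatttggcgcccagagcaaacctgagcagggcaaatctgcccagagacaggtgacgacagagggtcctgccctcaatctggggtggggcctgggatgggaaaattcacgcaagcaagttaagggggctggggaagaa

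The H2-K1 and H2-D1 start regions were alike. At their best ungapped offset 176 of 240 bases were identical (73.3%), while H2-K1 and H2-T23 shared 96 of 240 (40.0%). Both hold the kappa B sequence GGGGATTCC, at bases -111 to -103 from the RefSeq start site in H2-K1 and -171 to -163 in H2-D1. Of all 32851 promoter windows 0.250% hold that sequence on either strand. Downstream of it both hold a match to GAANNGAAA, part of an interferon response element, on the reverse strand (7.52% of all windows). Upstream of it both hold TGAGGTCA, a match to TGANGTCA, a pattern searched as X2-like or CRE-like (8.83% of all windows). Whether that match is the X2 box of these genes was not tested, and a window without the pattern can still hold an X2 box of other letters. No matches overlapped one another in any of the 8 windows. Positions and windows are relative to the RefSeq start sites, which lie inside the GENCODE M21 genes by 364 bases in H2-D1, 154 in H2-T23, 434 in Psmb9, 474 in Psmb8 and 3579 in Tapbp, and within 3 bases of the GENCODE start in H2-K1, B2m and Tap1. A motif reported as present or lacking in a window is therefore so for the RefSeq start alone.

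B2m and H2-T23 lack those 3 motifs in their windows but each holds 1 match to GAAANNGAAA, a GAAA repeat with 2 bases between, which 3.44% of all windows hold. That last motif was added after the windows had been seen. In B2m it lies at bases -139 to -130. CCAAT, the Y box, was found on either strand in 7 of the 8 windows, all but that of Psmb8, against 37.4% of all windows. Psmb8 alone holds a match to TTCNNNGAA, the gamma-activated sequence (8.30% of all windows), and to AGNAACNG, the core of the X1 box (17.4%). GGGCGG, the GC box, was found in the windows of Tapbp, Tap1 and Psmb9 (35.7% of all windows). Tap1 and Psmb9 are read in opposite directions from the printed stretch, whose CCAAT and GC box (CCGCCC on the printed strand) are the same matches in both windows. A match is a description of letters, and no binding was measured.

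All members except Nlrc5 reached 1 TPM in both libraries (9 of 10), against 31.0% of all Ensembl genes and 55.6% of protein-coding genes. Together the 10 genes held 1205 TPM in replicate 1 and 1459 TPM in replicate 2 (mean 1332 ± 180, n = 2). B2m alone made up 47.2% ± 0.459 of that sum, and B2m and H2-D1 together 72.6% ± 0.562. The median protein-coding gene detected in these spleens stood at 13.1 TPM, below every member but Nlrc5.

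**Figure D1:**
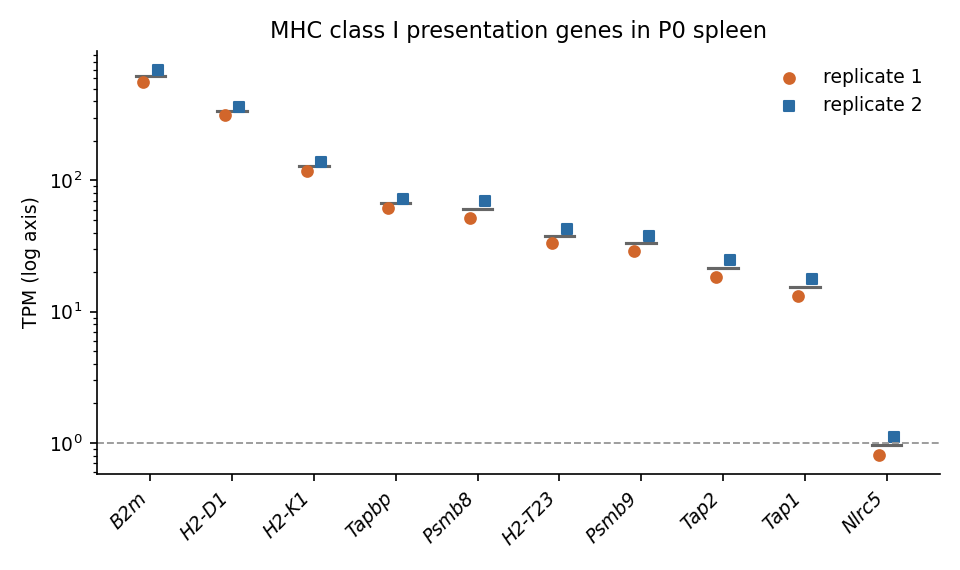
TPM of the 10 genes (vertical log axis) in replicate 1 (circles) and replicate 2 (squares), with the mean of the 2 libraries as a short line and 1 TPM as a dashed line. The genes fall from B2m at 630 TPM to Nlrc5 at 0.955 TPM, and in each gene replicate 2 lies above replicate 1. By deposited TPM, 70.1% of the 15506 genes compared between the pups were also higher in replicate 2.

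B2m, the shared light chain, was the highest of the set, at 565 TPM in replicate 1 and 694 TPM in replicate 2 (13559 and 15711 estimated counts). It ranked 140 among 21474 protein-coding genes by mean TPM. Patl2, which spans B2m on the opposite strand, had only 12 and 9 counts.

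H2-D1 (chr17:35262730-35267499, plus strand) was the leading heavy chain, with 315 TPM in replicate 1 and 360 TPM in replicate 2. H2-K1 (chr17:33996017-34000347, minus strand), the other classical chain, had 117 TPM and 139 TPM. H2-D1 thus stood 2.69 times above H2-K1 in replicate 1 and 2.60 times in replicate 2, and the ranges of these neighbours in the order did not overlap. H2-T23 (chr17:36029773-36032855, minus strand), the Qa-1 chain, was lower again, at 33.4 TPM and 42.6 TPM. Heavy-chain TPM was divided 67.1% ± 0.785 to H2-D1, 25.4% ± 0.296 to H2-K1 and 7.53% ± 0.489 to H2-T23, and this division was almost the same in both pups. Class I genes resemble one another in sequence, so reads can match several of them. The deposited posterior SD of the gene count was 8.24 and 9.32 counts for H2-D1, 1.23 and 1.70 for H2-K1, and 7.44 and 8.31 for H2-T23 in replicates 1 and 2, all small beside counts of 17366 and 18719, 5486 and 6103, and 1510 and 1840.

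B2m exceeded the 3 heavy chains together, by 1.22 times in replicate 1 and 1.28 times in replicate 2 (1.25 ± 0.0477, n = 2). With the 24 other H2 class I genes added to the heavy chains the ratio was 1.14 ± 0.0372. These are ratios of RNA per unit length, and protein was not measured.

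Of those 24 other class I genes, 8 passed 1 TPM in each library. The list summed to 44.3 TPM in replicate 1 and 56.1 TPM in replicate 2, against 465 TPM and 541 TPM for the 3 heavy chains. H2-Q10, a secreted class I chain best known from liver, led by its mean, with 11.04 TPM and 13.24 TPM. H2-T22, a ligand of some gamma delta T cell receptors, had 8.78 TPM and 13.34 TPM, slightly above H2-Q10 in replicate 2, and H2-T24 had 8.61 TPM and 10.19 TPM. Another 9 genes are listed at 0 counts in both libraries, among them H2-T3 and most of the H2-M10 genes, known from the vomeronasal organ. The limit for a gene at 0, taken as 3 counts, was 0.0906 CPM in replicate 1 and 0.0933 CPM in replicate 2. The posterior SD of the gene count was 2.26 and 2.29 counts for H2-Q10 and 6.67 and 8.60 counts for H2-T22, and 0 for H2-T24 in both libraries.

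The transport and loading genes were led by Tapbp (chr17:33915899-33929292, plus strand), which encodes tapasin, at 61.2 TPM in replicate 1 and 72.6 TPM in replicate 2. Tap2 (chr17:34203527-34216321, plus strand) had 18.4 TPM and 24.9 TPM. Tap1 (chr17:34187553-34197225, plus strand) had 13.2 TPM and 17.6 TPM. The products of Tap1 and Tap2 form the transporter as a heterodimer, and the Tap1 over Tap2 ratio of RNA was 0.721 in replicate 1 and 0.708 in replicate 2 (0.715 ± 0.00931, n = 2). This ratio is of gene totals, and most Tap2 TPM was assigned to Tap2-202, a transcript with no coding sequence. The coding Tap2-201 had 2.55 TPM and 3.23 TPM, below the coding Tap1-201 at 7.52 TPM and 9.33 TPM. The order of the gene totals is therefore not that of the coding transcripts. The ranges of both genes did not overlap, yet the gap was narrow, from 17.6 TPM for the higher Tap1 library to 18.4 TPM for the lower Tap2 library. Tapbp stood at 1.82 ± 0.161 times the sum of both transporter genes.

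The general chaperones that class I shares with other glycoproteins were more abundant, and all 14 genes of the list of chaperones and trimming peptidases reached 1 TPM. Calr (calreticulin) stood at 239 ± 16.9 TPM, Pdia3 (a thiol oxidoreductase of the loading complex) at 179 ± 13.0 TPM and Bcap31 (an export receptor for class I) at 158 ± 8.12 TPM. Erap1, the peptidase that trims peptides in the endoplasmic reticulum, had 11.5 TPM and 13.7 TPM. Tapbpl, the tapasin-related peptide editor, had 4.94 TPM and 7.46 TPM. Erap1 and Tapbpl are named beside the rule for named genes, after their values were seen.

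Psmb8 (chr17:34197721-34201454, plus strand) had 51.5 TPM in replicate 1 and 69.8 TPM in replicate 2. Psmb9 (chr17:34181987-34187764, minus strand) had 29.1 TPM and 37.8 TPM. They encode the inducible subunits that take the places of Psmb5 and Psmb6 in the catalytic core, and Psmb10, the third inducible subunit, on chromosome 8, had 38.9 TPM and 48.7 TPM and takes the place of Psmb7. Over the 2 libraries the TPM range of Psmb8 overlapped that of Tapbp, and that of Psmb9 overlapped that of H2-T23. Within each library the order was nonetheless the same, with Tapbp over Psmb8 at 1.19 and 1.04 and H2-T23 over Psmb9 at 1.15 and 1.13 in replicates 1 and 2. The deposited TPM intervals overlapped for Tapbp and Psmb8 in replicate 2 and for H2-T23 and Psmb9 in both libraries, so the order there is not resolved.

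The constitutive subunits were higher than their inducible partners in both pups. Psmb5 had 195 TPM and 186 TPM, Psmb6 310 TPM and 301 TPM, and Psmb7 138 TPM and 123 TPM in replicates 1 and 2. The sum of Psmb8, Psmb9 and Psmb10 was 0.186 times the sum of Psmb5, Psmb6 and Psmb7 in replicate 1 and 0.257 times in replicate 2 (0.221 ± 0.0501, n = 2). Psmb9 over Psmb6 was the lowest of the pairs, at 0.110 ± 0.0226, while Psmb8 over Psmb5 and Psmb10 over Psmb7 stood at 0.320 ± 0.0788 and 0.338 ± 0.0816. The ratio was higher in replicate 2 in all 3 pairs, where the inducible subunits had more TPM and the constitutive ones less.

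**Figure D2:**
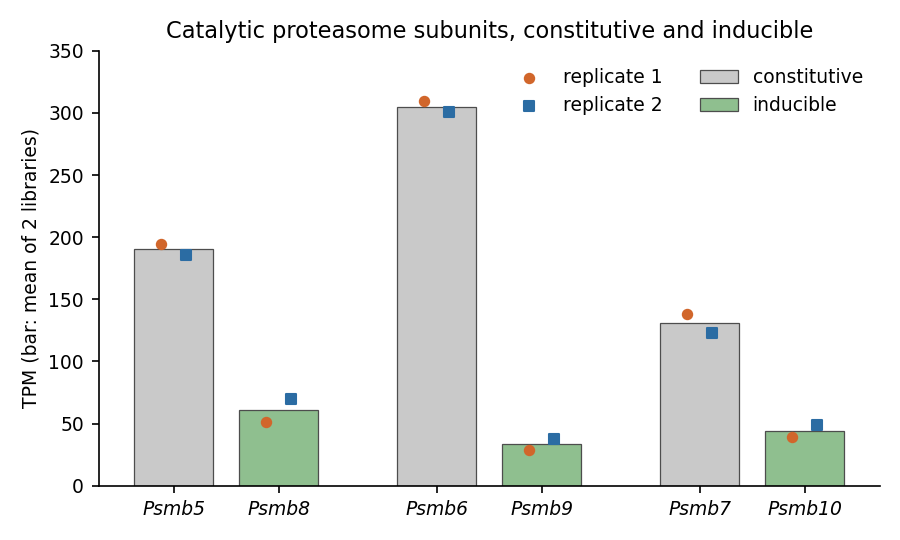
TPM of each constitutive catalytic subunit (grey bars) beside the inducible subunit that replaces it (green bars), as the mean of 2 libraries, with replicate 1 as circles and replicate 2 as squares. The constitutive means lie between 131 and 305 TPM and the inducible means between 33.5 and 60.6 TPM, and the pups differ in opposite directions in the 2 kinds.

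Psmb11, the subunit of the thymus proteasome, had 0 counts in both libraries. The interferon-inducible activator genes were at a level near the constitutive subunits: Psme1 had 128 TPM and 142 TPM, and Psme2, whose product forms a ring with that of Psme1, 201 TPM and 219 TPM. Psme3, the nuclear activator, had 119 TPM and 115 TPM, and Psme4, another nuclear activator, 12.5 TPM and 13.3 TPM. Pomp, which helps to assemble the core particle, had 255 TPM and 260 TPM. The 11 structural subunits of the core all reached 1 TPM and were led by Psma7 at 375 ± 7.54 TPM, Psma3 at 367 ± 4.46 TPM and Psmb3 at 357 ± 14.5 TPM.

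Nlrc5 was the lowest member, at 0.810 TPM in replicate 1 and 1.10 TPM in replicate 2, from 67 and 95 counts. It lay on both sides of 1 TPM, which is why it misses the count of detected members. Ciita, the related transactivator of class II genes, was equally low at 0.820 TPM and 0.870 TPM. The factors that NLRC5 and CIITA work with on the X and Y boxes were present: Rfxap had 18.7 TPM and 16.5 TPM, Rfxank 4.44 TPM and 4.85 TPM, and Rfx5 2.08 TPM and 3.23 TPM. These 3 and Ciita are named beside the rule, after their values were seen. Of the 17 listed class I promoter factors 16 reached 1 TPM, with Atf1 (a factor of the X2 site) at 53.6 ± 0.587 TPM and Nfyc (a subunit of the Y box factor) at 38.6 ± 1.69 TPM.

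RNA of the interferon ligands listed was scarce, and other interferon genes were not examined. Ifng, the type II interferon, had 6 and 17 counts, and Ifnb1, Ifna4 and Ifnl2 had 0 in both libraries. Receptor and kinase genes were present at moderate levels, led by Ifngr1 at 73.0 ± 11.3 TPM, Ifnar2 at 70.2 ± 7.43 TPM and Jak1 at 54.6 ± 6.29 TPM, and 8 of the 12 listed ligand, receptor and signalling genes reached 1 TPM. All 14 listed interferon-stimulated genes reached 1 TPM. Rsad2 (viperin, an antiviral enzyme) led with 101 ± 17.5 TPM, followed by Isg15 (a ubiquitin-like modifier) with 81.4 ± 19.0 TPM and Bst2 (tetherin, which holds budding viruses at the membrane) with 78.8 ± 16.2 TPM.

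Genes related to class I and receptors for it were also measured. Fcgrt, the heavy chain of the neonatal Fc receptor, which also pairs with beta-2 microglobulin, had 49.8 TPM and 69.1 TPM. Cd1d1, which presents lipids, had 14.4 TPM and 18.5 TPM, and Hfe, a regulator of iron uptake, 12.3 TPM and 16.0 TPM, and 4 of the 6 class I-like genes reached 1 TPM. Among the 11 receptors for class I only 3 did. Pirb, an inhibitory receptor of B and myeloid cells, had 16.16 TPM and 22.04 TPM. Klrd1 (CD94) had 5.52 TPM and 6.99 TPM and Klrc1 (its NKG2A partner, which reads Qa-1) 1.66 TPM and 2.86 TPM. Cd8a, the coreceptor for class I on T cells, had 18 and 19 counts, and the 5 listed Ly49 genes (Klra) had at most 2 counts in either library. Cd8a and the Klra genes are named beside the rule, after their values were seen.

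The transcript tables divide each gene's TPM among its annotated transcripts. In 9 of the 10 genes 1 transcript held over 50% of the gene's TPM as a mean over the libraries, and in 8 of those 9 it was protein coding. B2m has a single transcript in the tables. H2-T23-201 held 90.9% and 88.0% of its gene, Tapbp-201 87.1% and 86.6%, and H2-D1-202 85.1% and 84.9%. Most of the rest of H2-D1 was assigned to H2-D1-203, a fragment of 391 nt with 9.54% and 10.62% of TPM but only 1.68% of the gene's counts as a mean.

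**Figure D3:**
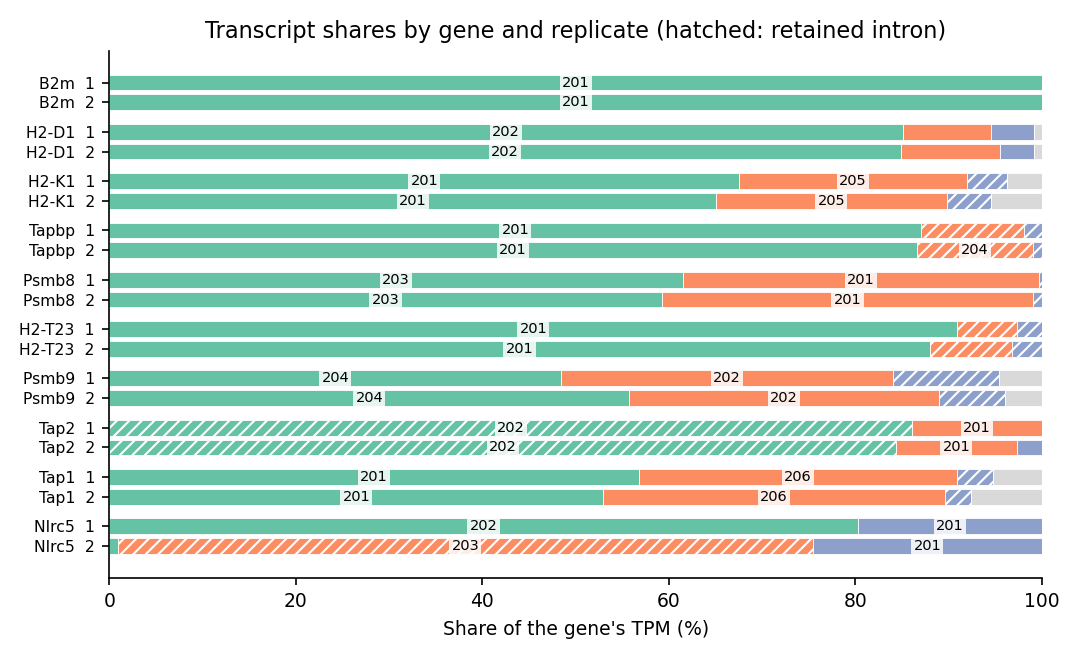
Share of each gene's TPM (horizontal axis, percent) assigned to its transcripts in replicates 1 and 2, with the transcript number in the wider segments, transcripts after the third pooled in grey and retained-intron transcripts hatched. Tap2 is the only gene whose leading transcript is hatched in both libraries, and Nlrc5 the only one whose leading transcript differs by more than 50 percentage points between pups.

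H2-K1 was divided between 2 full-length coding transcripts, H2-K1-201 with 67.5% and 65.0% and H2-K1-205 with 24.5% and 24.8%. Their coding parts differ by 27 bases at chr17:33996477-33996503, present in H2-K1-201 alone, and they differ also by 58 bases at the 5′ end and 36 at the 3′ end. The coding stretch, which adds 9 codons, is shown as it reads on the minus strand, from the GENCODE M21 transcript sequence.
H2-K1-201: tgatggttcatgaccctcattctctag
The posterior SD of the transcript counts (90.3 and 95.9 counts for H2-K1-201, of 3755 and 4035) was far above that of the gene, since most reads match both transcripts.

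Tap2 was the exception among the leading transcripts. Tap2-202, a retained-intron transcript with no coding sequence, was assigned 86.1% and 84.3% of the gene's TPM, and the coding Tap2-201 13.9% and 13.0%. In GENCODE M21 the 2 transcripts share 2399 bases. Tap2-202 has 162 bases of its own, an intron kept at chr17:34212068-34212229, while Tap2-201 has 1040 bases of its own at its 5′ end (chr17:34203527-34204566). Estimated counts were 1227 and 1535 for Tap2-202 against 268 and 321 for Tap2-201. The noncoding gene Gm15821 overlaps the kept intron on the opposite strand and had 6.62 and 12.7 counts. How evenly reads cover the 5′ end was not tested, as the tables hold no coverage.

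Tap1 was also divided, between the coding transcripts Tap1-201 with 56.8% and 53.0% and Tap1-206 with 34.1% and 36.6%, whose coding sequences differ by 84 bases, or 28 codons. Psmb8-203 led by TPM (61.5% and 59.2%) and Psmb8-201 by counts (57.4% as a mean), because the files give Psmb8-201 a length of 1628 nt and Psmb8-203 815 nt. The pair starts from different first exons. Psmb9-204, the full-length transcript, held 48.5% and 55.7%, and Psmb9-202, a fragment of 433 nt, 35.6% and 33.3%. The annotated Psmb9-204 and Tap1-206 overlap by 212 bases on opposite strands, and it is not known here if reads were counted by strand. Both genes carry the same posterior SD, 1.36 counts in replicate 1 and 1.78 in replicate 2.

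The Nlrc5 transcript assigned the most TPM differed between the libraries, but the division was poorly determined. Nlrc5-202 held 80.2% in replicate 1 and 0.909% in replicate 2, and Nlrc5-203 0% and 74.5%. These are short transcripts from the 3′ end of the gene that differ by 2 bases in the middle and 4 at the end. The stretch around the first difference (chr8:94525360-94525385, plus strand, GENCODE M21) is shown to make this plain, with the bases that only Nlrc5-203 has in capitals.
Nlrc5-202: tgcctccagcctcgcttgcctcta
Nlrc5-203: tgcctccagcctCAcgcttgcctcta
Counted together, an alternative chosen after seeing the data, they held 80.2% and 75.5%, from 33.3 and 40.1 counts. Nlrc5-201, the transcript with the full coding sequence in 49 exons, held 19.8% and 24.5% of TPM but 53.9% of the counts as a mean, from 33.5 and 54.9 counts. The posterior SD of the count was 10.06 in replicate 1 and 10.19 in replicate 2 for Nlrc5-202, and 10.08 and 10.27 for Nlrc5-203. By posterior mean TPM, Nlrc5-202 held 32.6% and Nlrc5-203 35.8% as means over the libraries. At these few counts a change of transcript between pups cannot be read from the shares.

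All 10 members were higher in replicate 2, by a small margin. For this comparison estimated counts were rounded and scaled between libraries by TMM, with a prior count of 2, over the 15506 genes that averaged 20 counts or more. Of these genes 51.1% were higher in replicate 2, so the members' 10 of 10 stands beside an almost even split. None of the 10 was at least 1.5-fold apart, against 7.11% of all genes. The members' log2 ratio of replicate 1 over replicate 2 had a median of -0.24, from -0.44 to -0.05, and the median over all genes was -0.01. With 1 library per pup there is no replicate check on a difference, and the members are not replicates of one another.

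The difference was unequal among the members. H2-D1 was 1.04-fold higher in replicate 2 (exact Clopper-Pearson 95% interval 1.01 to 1.06, covering counting error only), H2-K1 1.07-fold (1.03 to 1.11), Tapbp 1.07-fold (1.03 to 1.11) and B2m 1.11-fold (1.09 to 1.14). H2-T23 was 1.17-fold higher (1.09 to 1.25), Tap2 1.20-fold (1.12 to 1.28) and Tap1 1.22-fold (1.13 to 1.32). Apart from Nlrc5 the immunoproteasome members had the largest values, with Psmb9 at 1.23-fold (1.12 to 1.35) and Psmb8 at 1.25-fold (1.18 to 1.34). Both intervals overlapped those of Tap1, Tap2 and H2-T23, so the order among these genes is not resolved. Nlrc5 was at 1.35-fold with an interval of 0.987 to 1.89, so at its depth a difference was not detectable. Psmb10 went with the members at 1.14-fold (1.06 to 1.22). The constitutive Psmb5, Psmb6 and Psmb7 were lower in replicate 2, at 0.865-fold, 0.881-fold and 0.812-fold.

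**Figure D4:**
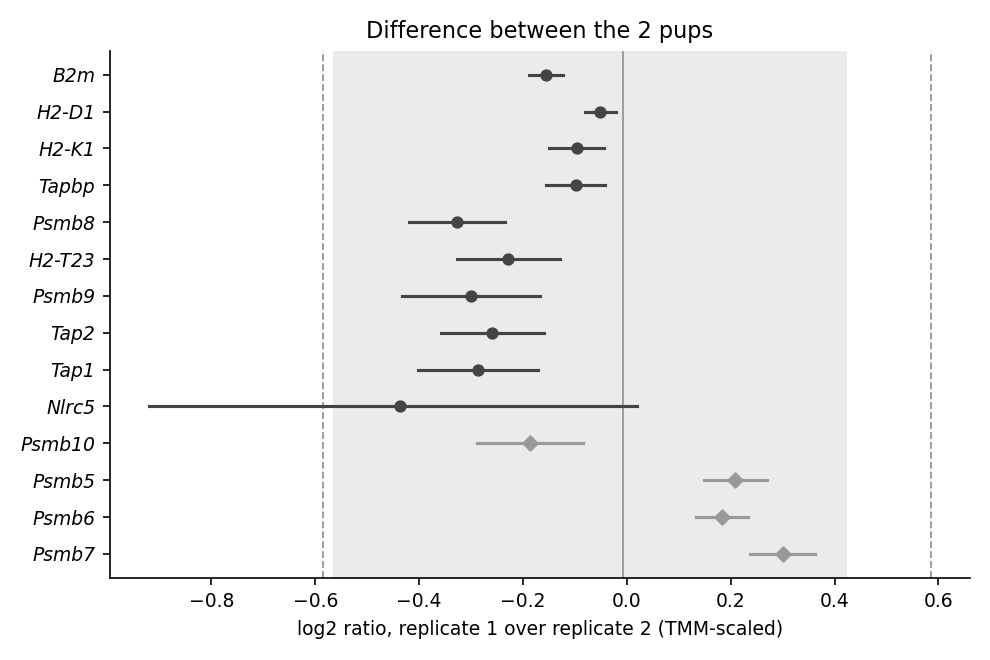
The log2 ratio of replicate 1 over replicate 2 (TMM-scaled) for the 10 members (circles) and 4 other catalytic proteasome subunits (diamonds), with exact 95% counting intervals, the 5th to 95th percentile of all genes in grey, their median as a line and 1.5-fold as dashed lines. All 10 members lie below 0, and Psmb5, Psmb6 and Psmb7 above it.

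The rest of the pathway did not move as 1 block. All 11 structural subunits of the proteasome core were higher in replicate 1 (median log2 ratio 0.17), although 3 of the 11 turned to higher in replicate 2 when deposited TPM was compared instead. The 14 chaperones and peptidases were divided, 8 higher in replicate 1 and 6 in replicate 2 (median 0.03), and 12 of them were higher in replicate 2 by deposited TPM. The 17 promoter factors were divided 9 to 8 (median 0.00), and the split turned to 4 against 13 by deposited TPM. Of the 9 other H2 class I genes in the comparison 8 were higher in replicate 2 (median -0.11), with H2-Q7 the exception. That became 7 of 9 by spike-in totals and 9 of 9 by library size alone or deposited TPM. Only H2-T22, at 1.38-fold (1.22 to 1.55), had an interval that excluded 1. All 4 class I-like genes (median -0.31) and all 4 class I receptors (median -0.25) were also higher in replicate 2. Among the receptors Klrc1 was just past 1.5-fold higher in replicate 2 (interval 1.17 to 1.97), from 98.7 and 156 counts. The intervals of Klrd1 (0.835 to 1.35) and Klrc2 (0.650 to 2.13) held 1. Klrc2 is named beside the rule, after its values were seen.

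The interferon-stimulated genes were all higher in replicate 2, 14 of 14, under each of the scalings tried, against 51.1% of all genes in the TMM comparison. Their median log2 ratio was -0.36 by TMM, and ranged from -0.31 by spike-in totals to -0.48 by deposited TPM. At least 1.5-fold apart were 4 of the 14, against 7.11% of all genes. The intervals of Ifit2 (0.972 to 1.27) and Oas1a (0.949 to 1.24), named beside the rule, held 1. Cxcl10, a chemokine, was 2.56-fold higher (1.76 to 4.08, from 33 and 91 counts) and Ifit3, an antiviral protein, 2.11-fold (1.76 to 2.58). The guanylate-binding proteins Gbp3 and Gbp2 were 1.67-fold (1.43 to 1.98) and 1.54-fold (1.30 to 1.85) higher. The part of interferon signalling in the members' difference was not tested.

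Markers of the cells in the organ moved between pups as well. The 6 spleen patterning genes, led by Tcf21, Nr2f2 and Wt1, all reached 1 TPM in both libraries, with a sum of 200 TPM in replicate 1 and 256 TPM in replicate 2. B cell markers (Cd79b and Cd79a highest) summed to 96.6 and 136 TPM, macrophage markers (C1qb, Vcam1, C1qa) to 282 and 423, neutrophil markers (S100a8, S100a9, Retnlg) to 14143 and 20057, NK cell markers (Nkg7, Gzma, Klrb1c) to 47.2 and 74.8, and stromal markers (Cxcl12, Col3a1, Col1a1) to 827 and 1193. Each of these lists was higher in replicate 2 in all of its genes compared. T cell markers (Lck, Cd3d, Cd3g) summed to only 12.9 and 15.8 TPM, with 3 of 6 at 1 TPM, dendritic cell markers (Zbtb46, Flt3, Itgax) to 16.9 and 19.2, with 3 of 6, endothelial markers (Egfl7, Stab2, Pecam1) to 231 and 277, and megakaryocyte markers (Pf4, Ppbp, Gp1bb) to 525 and 547. These sums are of deposited TPM. By TMM-scaled counts 3 of 5 dendritic cell markers (median log2 ratio 0.13) and 4 of 5 megakaryocyte markers (median 0.03) were higher in replicate 1. On that scale 3 of 4 T cell markers and 5 of 6 endothelial markers were higher in replicate 2. No marker in any list had 0 counts in both libraries.

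Among the marker lists the widest gaps were those of mast cells, pancreas and liver. Mast cell markers (Tpsb2, Cma1, Mcpt4) summed to 807 TPM in replicate 1 and 1825 TPM in replicate 2. Markers of exocrine pancreas, which lies beside the spleen (Ctrb1, Clps, Cela2a), summed to 841 and 293, and liver markers (Apoa1, Alb, Afp) to 24.5 and 12.6. Erythroid markers (Alas2 and Slc4a1 highest) were higher in replicate 1 in 6 of 6 genes, with sums of 2367 and 2097, and adult globin genes held 27.8% and 25.7% of all TPM. Marker genes at least 1.5-fold apart were Tpsb2, Cma1, Mcpt4, Cpa3, Gzma, Cd3g, Cd4 and Dcn, all higher in replicate 2, and Ctrb1, Clps, Cela2a, Spink1, Cpa1, Apoa1, Alb, Afp and Ttr, all higher in replicate 1. The part of these cell types in the members' difference was not tested, and with 1 library per pup it cannot be told apart from a difference between animals.

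**Figure D5:**
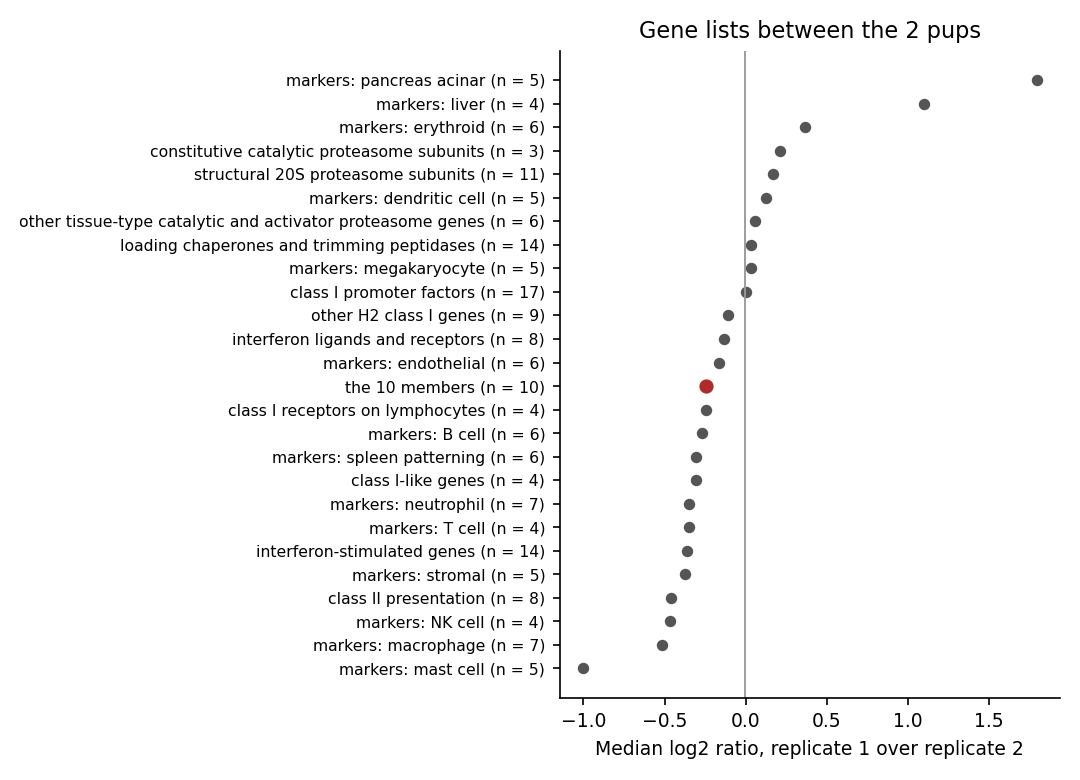
Median log2 ratio of replicate 1 over replicate 2 (horizontal axis) for each gene list with at least 3 genes in the comparison, the number of genes in brackets, the 10 members in red and the median of all genes as a line. The members at -0.24 lie among the lists higher in replicate 2, between pancreas markers at 1.80 and mast cell markers at -1.01.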

How the data were processed

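Per the labels, total RNA from 2 newborn spleens was extracted with mirVana, and a SMARTer low-input kit manual is linked as a protocol. The authors deposited a gene and a transcript table per library, on mm10 per the labels and with GENCODE M4 models per a listing deposited beside the tables, in the column layout of RSEM. Aligner, software versions and strand use: not given in the sources used here. Expected counts, as deposited, are estimates and need not be whole, the deposited TPM and FPKM values are normalized for length and library total over all features, and the deposited posterior SDs and posterior mean TPM describe how well reads could be divided. Genes were matched to GENCODE M21 names on the same assembly by identifier without version (42462 of 43346). Promoter windows are from RefSeq.

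Levels are deposited TPM with the SD of 2 libraries, and whether those vary technically or between animals cannot be told apart. For ratios, rounded expected counts received TMM scaling (edgeR 4.0.16, R 4.3.3), with no test. DESeq2 1.42.0 gave an alternative scaling. The rest ran in Python 3.11.15 (scipy 1.17.1, pandas 2.3.3, numpy 2.4.6). Intervals and the limit of 3 counts cover counting error only. They treat reads as independent, so they are too narrow where PCR copies of a molecule are counted as reads. The ratio step was checked on simulated counts with 200 changed genes. Alternatives were posterior mean TPM, FPKM, counts, rescaled TPM, other thresholds, scalings, filters and prior counts, and each library alone. The rule for named genes takes all members, the 3 highest genes of each of the other lists, all genes of the catalytic and activator proteasome lists, and list genes at least 1.5-fold apart. The values of 3 genes that the rule takes are not reported here. The members and lists were chosen with earlier results of these data known.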

Additional observations from a re-analysis of the deposited data

How the results depend on the processing

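All 10 members compared were higher in replicate 2 under each scaling, filter and prior count tried (9 of 9 at a mean count of at least 100, where Nlrc5 drops out), and none was 1.5-fold apart. With spike-in totals H2-D1 came to 0.00 on the log2 scale. The members' median log2 ratio of -0.24 became -0.34 by library size alone and -0.37 by deposited TPM. Those scalings moved the median of all genes to -0.11 and -0.14, and the share of all genes higher in replicate 2 to 66.1% and 70.1%. Without a filter on low counts 23.4% of 24617 genes were 1.5-fold apart, at a mean count of at least 100 it was 2.75% of 12367, and by deposited TPM 11.7%. The summed TPM rose to 1816 when rescaled without adult globin genes and ranged from 1205 to 1459 over single libraries. Over single libraries the TPM ratios ranged from 0.186 to 0.257 for inducible over constitutive subunits, 0.708 to 0.721 for Tap1 over Tap2 and 1.22 to 1.28 for B2m over heavy chains. From counts, which are not per length, the means of these ratios were 0.296, 0.739 and 0.573, all outside those TPM ranges, and for B2m the order turned. Tap1 over Tap2 was 0.694 by posterior mean TPM. Detected members numbered 10 at 0.5 TPM, by posterior mean TPM and in replicate 2 alone, and 9 at 5 TPM and in replicate 1 alone. A transcript led with over 50% in 10 genes by counts, in replicate 2 alone and with Nlrc5-202 and Nlrc5-203 together, and in 9 otherwise. No paired analysis was possible because the 2 libraries form 1 group. Depth limits Nlrc5, with under 100 counts in either library.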

Other observations

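Class II presentation, the pathway by which professional antigen-presenting cells display material they have taken up, was detected in all 8 of its listed genes. Cd74, the invariant chain, had 121 TPM in replicate 1 and 169 TPM in replicate 2. H2-Ab1 and H2-Aa, the chains of the I-A molecule, had 52.9 and 77.9 TPM and 31.99 and 47.9 TPM. The 3 class I heavy chains together stood at 4.53 times the sum of H2-Aa, H2-Ab1 and H2-Eb1 in replicate 1 and 3.52 times in replicate 2 (4.02 ± 0.712, n = 2). All 8 class II genes were higher in replicate 2, with a median log2 ratio of -0.46. H2-DMb1, a chain of the class II peptide editor, was 1.92-fold higher (exact Clopper-Pearson interval 1.56 to 2.39), and H2-Oa, a chain of its inhibitor, 1.60-fold (1.19 to 2.21). Ciita, the class II transactivator, went the other way at 0.955-fold with an interval of 0.745 to 1.22, so no difference was detectable at its 134 and 133 counts.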
